A study of Mus musculus with 4 samples.

Results

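mmu-miR-99b-5p, mmu-let-7e-5p and mmu-miR-125a-5p are the 5p products of 3 neighboring hairpins on mouse chromosome 17, and the rule that defines them uses name and genome position, not measured values. Each name has exactly 1 row in the deposited count tables, so the 3 members are 3 of the 1059 mature miRNAs listed. All 3 passed the minimum of 10 counts in at least 2 libraries and are among the 274 miRNAs compared between genotypes. The study deleted Dicer early in the telencephalon and asked which miRNAs change at the stage when the first defects of the neuroepithelium appear. The 2 mutant libraries come from Rx-Cre;Dicer F/F embryos (Rx-Dicer mutants) and the 2 control libraries from Dicer F/F littermates, which the labels call WT, all at E11.5. Cre was driven from the Rx3 promoter on a CD1 background, the floxed Dicer allele came from a C57BL/6 background, and the tissue was the rostral-most telencephalic primordium. The tissue was not sorted by recombination, so cells that kept Dicer can be present, and fewer cells of a type cannot be told apart from less miRNA per cell. The number of embryos per library is not given in the sources used here, so the libraries of a genotype were used as replicates and p-values measure the spread between these libraries.

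Dicer cuts most hairpin precursors into mature miRNAs, which for the members are 22 or 24 bases long. A mature miRNA recognizes its target mRNAs mainly through its seed, bases 2 to 8 from the 5′ end, so miRNAs that share a seed are grouped into a family. let-7 miRNAs promote differentiation and restrain growth genes, and their maturation is blocked in stem and progenitor cells by the RNA-binding protein Lin28. miR-125 miRNAs, relatives of the worm timing gene lin-4, repress Lin28 itself, and miR-99 miRNAs are known to act on the Mtor pathway. The arrangement of a miR-99, a let-7 and a miR-125 gene in this order occurs at 3 places in the mouse genome.

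The mature sequences are shown by family because the 3 members of the cluster have 3 different seeds, while each has close relatives elsewhere in the genome. Sequences are from RefSeq (GRCm38.p6), and capitals mark the seed.
mmu-miR-99b-5p: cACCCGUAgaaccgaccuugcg
mmu-miR-99a-5p: aACCCGUAgauccgaucuugug
mmu-miR-100-5p: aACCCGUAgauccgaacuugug
mmu-let-7e-5p: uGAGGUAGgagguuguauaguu
mmu-let-7a-5p: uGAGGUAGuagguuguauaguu
mmu-let-7c-5p: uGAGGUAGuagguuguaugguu
mmu-miR-125a-5p: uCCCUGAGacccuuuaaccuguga
mmu-miR-125b-5p: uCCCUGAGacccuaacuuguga
mmu-miR-351-5p: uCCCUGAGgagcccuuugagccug

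Base differences are counted from the 5′ end, with the base of the cluster member first. let-7e-5p differs from let-7a-5p by G9U and from let-7c-5p by G9U and A19G. The base at position 9 also separates let-7e-5p from miR-98, let-7i, let-7g, let-7f, let-7d and let-7b, whereas the short let-7k sequence has the same first 16 bases. miR-99b-5p differs from miR-99a-5p at 4 of 22 bases (C1A, A11U, C16U and C21U), and from miR-100-5p also at 4. miR-125a-5p and miR-125b-5p have the same first 13 bases, and miR-125a-5p is 24 bases long against 22 for the other members. A read of let-7a that carries the difference G9U could be counted on let-7e-5p if the counting allowed a mismatch. The mismatch setting is not given in the sources used here, and the share of such reads was not tested.

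The 3 hairpins lie within 692 bases of the plus strand of mm10. Mir99b is at chr17:17830188-17830257, Mirlet7e at chr17:17830352-17830444 and Mir125a at chr17:17830812-17830879, with 94 bases between the first pair and 367 between the second. GENCODE places all 3 in intron 1 of Spaca6 (chr17:17827328-17838086 in its protein-coding transcript there), on the same strand as Spaca6, a gene known for its role in sperm-egg fusion. In a shorter non-coding transcript, Spaca6-203, 47 bases of Mir125a lie in exon 1 (chr17:17830719-17830858). An annotated antisense gene, Gm25927, covers Mirlet7e on the minus strand. The related genes are far less compact. Mir99a, Mirlet7c-1 and Mir125b-2 span 47408 bases of chromosome 16, and Mir100, Mirlet7a-2 and Mir125b-1 span 50578 bases of chromosome 9.

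**Figure D1:**
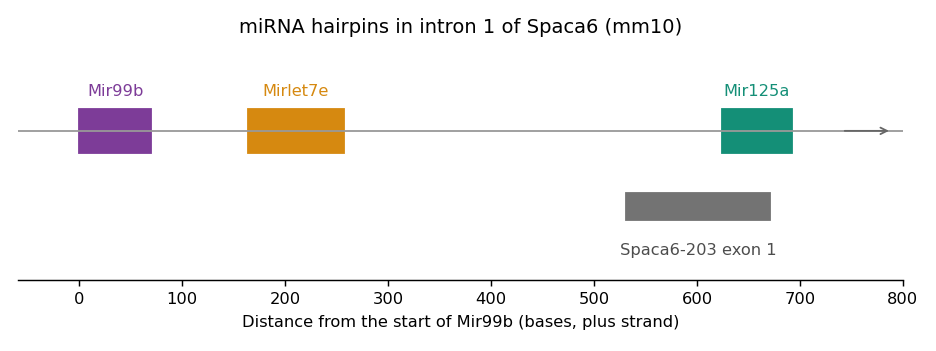
Map of the 3 hairpins (colored boxes) by distance in bases from the start of Mir99b, with the exon of transcript Spaca6-203 in grey. The 3 hairpins fit within 692 bases, and only Mir125a overlaps this exon.

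All 3 members were abundant in the rostral telencephalon of both genotypes. Rx-Dicer libraries 1 and 2 held 651031 and 516517 counts of mature miRNAs, and control libraries 1 and 2 held 1299067 and 1133553. miR-99b-5p ranked 2 of the mature miRNAs listed in each of the 4 libraries, behind miR-9-5p, a miRNA characteristic of forebrain neuroepithelium that ranked 1 in each. miR-125a-5p ranked 16 and 17 in the mutant libraries and 11 in both control libraries. let-7e-5p ranked 29 and 23 in mutants and 21 and 26 in controls. The order miR-99b-5p, miR-125a-5p, let-7e-5p was the same in each library. Each count is a read of a mature miRNA, so no correction for length is needed, but adapter ligation differs between sequences and an order of counts need not be an order of molecules. The 3p arms of these hairpins have no row in the counts used here. Few of the miRNAs tested are named as 3p arms, so ranks and shares hold among the listed miRNAs only.

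miR-99b-5p was read 36080 and 29807 times in Rx-Dicer libraries 1 and 2, and 63741 and 51938 times in control libraries 1 and 2. With TMM scaling, which adjusts library totals so that most miRNAs have no net difference, this was 47425 and 50825 CPM (the count relative to the scaled library total) in mutants and 52973 and 56310 in controls. The mutant values lay just below the control values. A loss of similar size in most miRNAs would not show after this scaling, nor in shares of counts. The log2 fold changes therefore do not measure absolute amounts, and a small value does not mean an unchanged amount. The mutant mean was 49125 ± 2404 and the control mean 54641 ± 2360 (SD, n = 2 each), and the log2 fold change −0.15 ± 0.23 (standard error; adjusted p = 0.856 by the quasi-likelihood test of edgeR with Benjamini-Hochberg adjustment, used throughout). The 95% interval of the log2 fold change, −0.69 to 0.38, reaches from a 1.61-fold decrease to an increase. As unscaled shares the order was the opposite. miR-99b-5p took 5.54% and 5.77% of all counts in mutants against 4.91% and 4.58% in controls, so the direction for this member rests on the scaling.

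let-7e-5p, the let-7 of the cluster, was read 4735 and 4700 times in Rx-Dicer libraries 1 and 2, and 15327 and 8443 times in control libraries 1 and 2. As scaled CPM this was 6224 and 8014 in mutants and 12738 and 9154 in controls. As unscaled shares, 0.727% and 0.910% against 1.18% and 0.745%, the groups overlapped. On the scaled values both mutant libraries lay below both control libraries, but the gap between mutant library 2 and control library 2 was smaller than the difference between the control libraries. Means were 7119 ± 1266 and 10946 ± 2534 (SD, n = 2 each), and the log2 change between genotypes was −0.62 ± 0.28 (standard error; edgeR, adjusted p = 0.497), with a 95% interval of −1.28 to 0.041. Without control library 1 the log2 fold change was −0.32. let-7e-5p was the most variable member, with control library 1 at 1.39 times control library 2.

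miR-125a-5p was read 11404 and 7939 times in Rx-Dicer libraries 1 and 2, and 24922 and 16419 times in control libraries 1 and 2. As scaled CPM this was 14990 and 13537 in mutants and 20712 and 17801 in controls, with both mutant libraries below both control libraries. Means were 14264 ± 1027 and 19256 ± 2058 (SD, n = 2 each), and the log2 change between genotypes was −0.43 ± 0.24 (standard error; edgeR, adjusted p = 0.594), with a 95% interval of −1.0 to 0.13. Without control library 1 the log2 fold change was −0.28. As unscaled shares the groups overlapped, with 1.75% and 1.54% in mutants and 1.92% and 1.45% in controls, and with totals as the only scaling the log2 fold change was −0.034.

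**Figure D2:**
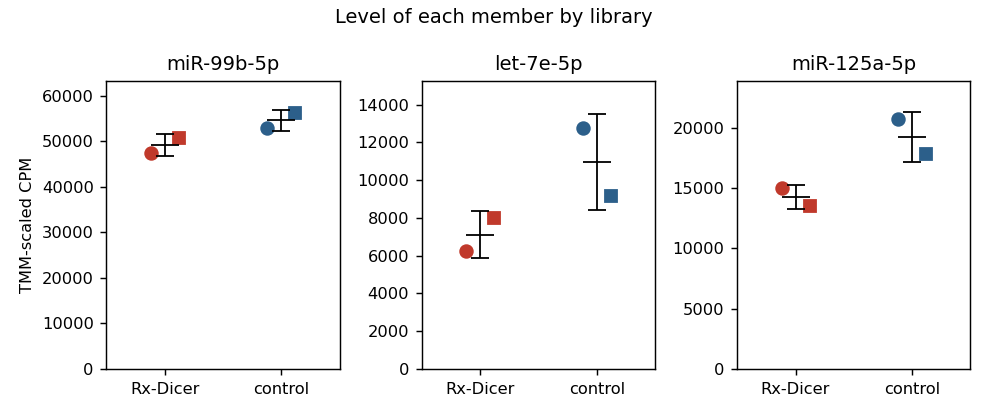
TMM-scaled CPM of each member in each library (circles, replicate 1; squares, replicate 2), with the mean and SD of 2 libraries per genotype in black. Both Rx-Dicer libraries lie below both control libraries for each member. Without TMM scaling the order turns around for miR-99b-5p and the groups of the other members overlap.

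By edgeR with the settings above, 0 of the 3 members passed 0.05 for the adjusted or for the unadjusted p, and 0 passed the adjusted threshold in DESeq2's Wald test. With no count minimum in edgeR, the unadjusted p was 0.00838 for let-7e-5p and 0.0395 for miR-125a-5p, and the adjusted p was 0.242 and 0.533. Of the 274 miRNAs in the test, 7 (2.55%) passed an adjusted p of 0.05 with lower values in mutants and 0 (0%) with higher values. Before adjustment 23 (8.39%) passed 0.05 with lower values and 3 with higher values. This balance turned around with totals as the only scaling, when 10 passed with lower values and 51 with higher values. The scaled CPM of all 3 members did not overlap between genotypes, in the direction of lower values in mutants, as was the case for 67 miRNAs (24.5%) of those tested. In order of log2 fold change from the most negative, let-7e-5p stood at position 30, miR-125a-5p at 56 and miR-99b-5p at 96. The median log2 fold change was 0.04 over all miRNAs tested.

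**Figure D3:**
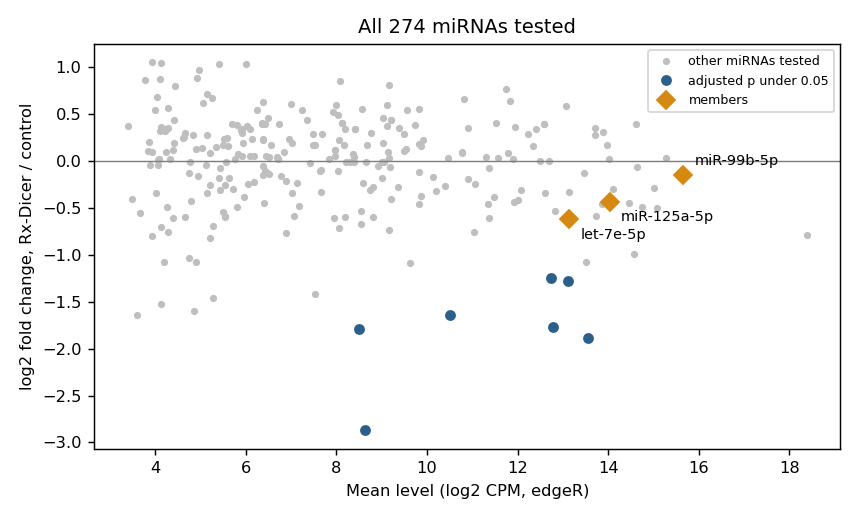
log2 fold change of Rx-Dicer against control libraries, against mean level, for the 274 miRNAs tested. The members (diamonds) lie at the abundant end at −0.15, −0.43 and −0.62, above the 7 miRNAs with an adjusted p under 0.05 in edgeR (blue).

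The cluster as a whole was a large part of the counts of the listed miRNAs in both genotypes. The 3 members together were read 52219 and 42446 times in the mutant libraries, in order of their number, and 103990 and 76800 times in the controls. This was 8.02% (95% Wilson interval 7.96 to 8.09) and 8.22% (8.14 to 8.29) of all counts in mutants, and 8.0% (7.96 to 8.05) and 6.78% (6.73 to 6.82) in controls. Control library 2 stood apart from the other 3 libraries. In that library miR-9-5p took 42.6% of all counts, against 31.5% in control library 1 and 28.2% and 29.4% in the mutant libraries. With miR-9-5p left out of the totals, the cluster took 11.2% and 11.6% in mutants and 11.7% and 11.8% in controls. The mean difference between genotypes was then −0.34 percentage points, against 0.73 with miR-9-5p in the totals. As TMM-scaled CPM the sum was 70508 ± 2643 for the mutants and 84844 ± 2233 for the controls (SD, n = 2 each). PCR copies are not told apart from separate molecules in these counts, so the intervals cover counting error only.

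Ratios within a library do not depend on how libraries are scaled, and they show how the makeup of the cluster differed. Per count of miR-99b-5p, let-7e-5p had 0.131 and 0.158 counts in the mutants, in order of library number, and 0.240 and 0.163 in the controls. Both mutant libraries were below both control libraries, although mutant library 2 and control library 2 were close. The difference of the mean log2 ratios was −0.46, and −0.18 without control library 1. The ratio of miR-125a-5p to miR-99b-5p was 0.316 and 0.266 in mutants and 0.391 and 0.316 in controls. Here mutant library 1 and control library 2 were equal to the third decimal, and the difference of the mean log2 ratios was −0.28, and −0.12 without control library 1 or −0.15 without Rx-Dicer library 2. The ratio of let-7e-5p to miR-125a-5p overlapped between genotypes, with 0.415 and 0.592 in mutants and 0.615 and 0.514 in controls. With 2 libraries against 2, an exact permutation test (two-sided) cannot give a p under 0.333. The p was 0.333 for the ratios to miR-99b-5p and 0.667 for let-7e-5p to miR-125a-5p in this exact test, and 0.467, 0.467 and 0.778 after adjustment over the 7 ratios examined. By share, miR-99b-5p made up 69.1% and 70.2% of the cluster's counts in mutants and 61.3% and 67.6% in controls.

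The relatives of let-7e-5p had more negative values than let-7e-5p itself. Of the 8 other miRNAs with the seed GAGGUAG that were tested, 7 passed the adjusted threshold of 0.05 in edgeR and were lower in mutants, with a median log2 fold change of −1.70 over the 8, against 0.04 over all miRNAs tested. These 7 are also the 7 that passed among all miRNAs. let-7e-5p had the least negative value of the 9. The next was let-7a-5p, at −1.08 (edgeR, adjusted p = 0.105). By the Wald test of DESeq2 let-7a-5p passed too (adjusted p = 0.00637), as did the other 7, and in edgeR it passed with no count minimum, with at least 100 counts and with each precursor row tested. let-7k, with 0 counts in both mutant libraries and 1 and 2 in the controls, was below the count minimum. let-7j, named as a let-7 but with a different seed, had 84.1 and 114 scaled CPM in mutants and 243 and 287 in controls, a log2 change of −1.42 (edgeR, adjusted p = 0.0718), and passed by the Wald test of DESeq2 (adjusted p = 0.00773). In edgeR it passed with no count minimum (adjusted p = 0.000807), with at least 100 counts (0.0443), with precursor rows summed (0.0419) and with each precursor row tested (0.0151). let-7c-5p, made in part from the related cluster on chromosome 16, had 5604 and 4546 scaled CPM in mutants and 24132 and 13470 in controls. The log2 change between genotypes was −1.89 ± 0.34 (standard error; edgeR, adjusted p = 0.0472). The calls depended on the scaling and on single libraries. In edgeR 0 of all miRNAs tested passed with lower values with totals as the only scaling, 3 with upper-quartile scaling, 4 with the size factors of DESeq2 and 0 with a replicate block. With no count minimum 14 passed, with at least 100 counts 10 and with precursor rows summed 8. For the 7 called with the main settings, log2 fold changes were −2.50 (let-7b-5p) to −0.84 (let-7g-5p) with totals only. With the block they were −2.80 (let-7b-5p) to −1.24 (let-7g-5p). Without control library 1 or without control library 2, 0 of all miRNAs tested passed in edgeR (18 and 28 were lower at an unadjusted p under 0.05), and the adjusted p of let-7c-5p was 0.0887 and 0.132 without Rx-Dicer library 1 or 2. Reads of the let-7 members could fit more than 1 of them if the counting allowed a mismatch, and their share was not tested. These miRNAs may therefore not be independent observations.

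let-7e-5p therefore held a larger part of the let-7 seed family in mutants. It made up 19.2% (95% Wilson interval 18.8 to 19.7) and 23.7% (23.2 to 24.3) of the family's counts in Rx-Dicer libraries 1 and 2, against 13.5% (13.3 to 13.7) and 13.1% (12.9 to 13.4) in control libraries 1 and 2. The groups did not overlap, and the controls were nearly equal. The mean share was 1.61 times as high in mutants (21.5% ± 3.19 against 13.3% ± 0.278, SD, n = 2 each), with p = 0.333 in the exact permutation test (two-sided). Against let-7c-5p, the ratio of let-7e-5p counts was 1.11 and 1.76 in mutants and 0.528 and 0.680 in controls. The groups did not overlap, and the mean log2 ratio was 1.22 higher in mutants. Against let-7a-5p, which differs from it by a single base, the ratio was 0.822 and 1.08 in mutants and 0.704 and 0.673 in controls, a difference of 0.45 on the log2 scale, and of 0.26 without Rx-Dicer library 2. For both ratios the exact permutation test gave p = 0.333 (0.467 adjusted over the 7 ratios).

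In the miR-99 family, miR-99a-5p had a more negative log2 fold change than miR-99b-5p and miR-100-5p. miR-99a-5p had 17066 and 15672 scaled CPM in Rx-Dicer libraries 1 and 2, and 28771 and 36145 in control libraries 1 and 2. The log2 change between genotypes was −0.99 ± 0.25 (standard error; edgeR, adjusted p = 0.124; 0.00670 by the Wald test of DESeq2), so its call depended on the test, and in edgeR it also passed with no count minimum (adjusted p = 0.00409) and with each precursor row tested (0.0277). miR-99b-5p outnumbered miR-99a-5p by 2.78 and 3.24 to 1 in mutants and by 1.84 and 1.56 to 1 in controls. The groups did not overlap, and the mean log2 ratio was 0.83 higher in mutants (exact permutation test, two-sided, p = 0.333, adjusted over the 7 ratios 0.467). The third miRNA with this seed, miR-100-5p, had 29628 and 19969 scaled CPM in mutants and 19835 and 32158 in controls, with fully overlapping groups. The log2 change between genotypes was −0.07 (edgeR, adjusted p = 0.984), and this value changed sign with totals as the only scaling (0.36) and with upper-quartile scaling (0.033). With the main settings 0 of 3 miRNAs of this family passed the threshold in edgeR. As a share of the family's counts, miR-99b-5p took 50.4% and 58.8% in Rx-Dicer libraries 1 and 2, and 52.1% and 45.2% in control libraries 1 and 2. These shares overlapped between genotypes (exact permutation test, two-sided, p = 0.667).

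In the miR-125 family, miR-125a-5p and miR-125b-5p, which come from different clusters, had similar values. miR-125b-5p, made from the related clusters on chromosomes 9 and 16, had 24799 and 21093 scaled CPM in mutants and 28943 and 35751 in controls. The log2 change between genotypes was −0.50 ± 0.25 (standard error; edgeR, adjusted p = 0.526), next to −0.43 for miR-125a-5p. The ratio of miR-125a-5p to miR-125b-5p was 0.604 and 0.642 in mutants and 0.716 and 0.498 in controls, so both mutant values lay between the control values. The difference of the mean log2 ratios was 0.061 (exact permutation test, two-sided, p = 1). miR-351-5p, an X-linked miRNA with the same seed, had 4206 and 3421 scaled CPM in mutants and 4174 and 3359 in controls, a log2 fold change of 0.018 (edgeR, adjusted p = 0.990). 0 of these 3 miRNAs passed the threshold in edgeR. The share of miR-125a-5p in the family's counts was 34.1% and 35.6% in mutants and 38.5% and 31.3% in controls, so the groups overlapped.

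**Figure D4:**
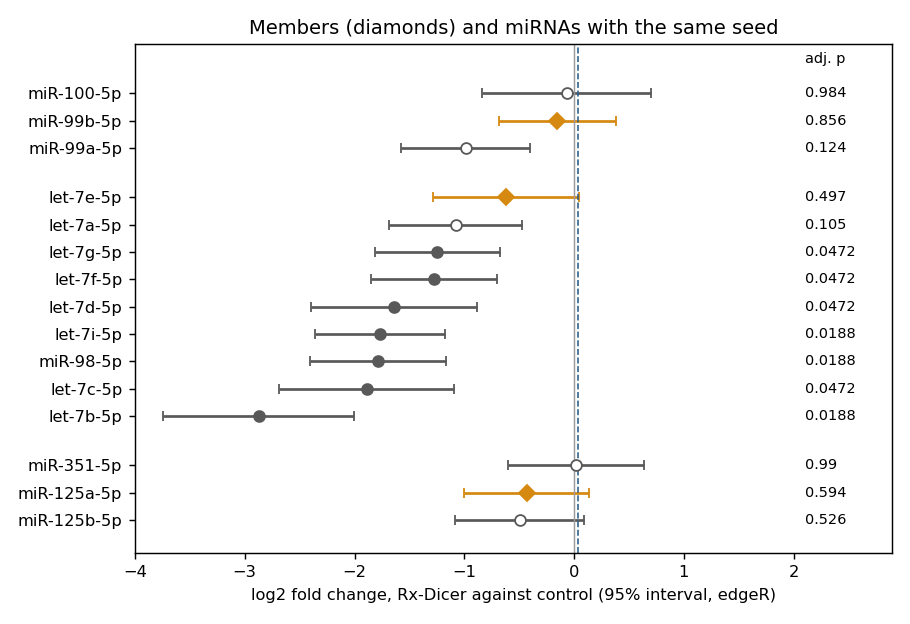
log2 fold change with its 95% interval (edgeR) for each member (diamond) and the tested miRNAs with the same seed, with filled circles for an adjusted p under 0.05 and a dashed line at the median of all miRNAs tested. let-7e-5p has the least negative value among the let-7 seed family, and the intervals of all 3 members include 0.

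**Figure D5:**
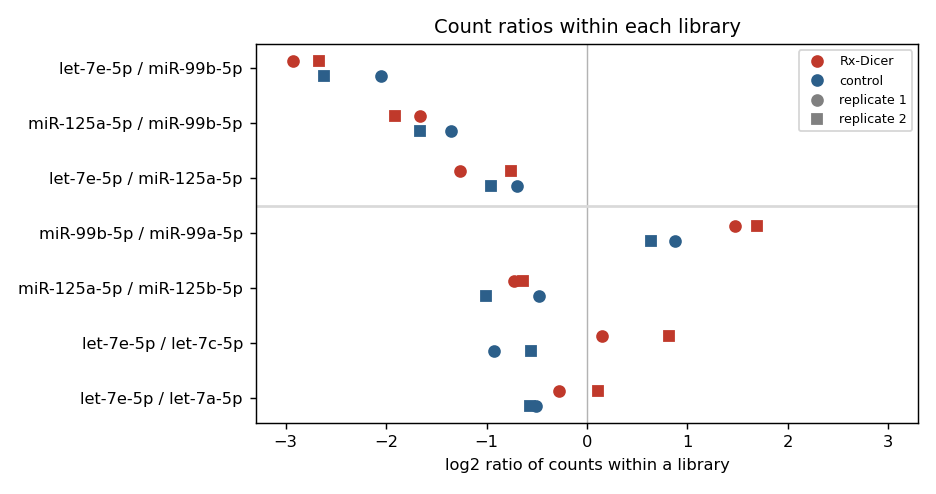
log2 ratio of counts within each library, among the members (above the grey line) and between members and their relatives in the other clusters (below it). The groups are furthest apart for let-7e-5p to let-7c-5p and for miR-99b-5p to miR-99a-5p, and they overlap for miR-125a-5p to miR-125b-5p and for let-7e-5p to miR-125a-5p.

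The profile of each member over the 4 libraries was compared with those of the 156 other tested miRNAs with a mean of at least 100 scaled CPM, by the Euclidean distance between log2 values centered on their mean. The nearest to miR-99b-5p were miR-148a-5p (distance 0.021), miR-361-5p (0.048) and miR-16-5p (0.13). For miR-125a-5p they were miR-384-5p (0.067), miR-26a-5p (0.079) and miR-129-5p (0.083). For let-7e-5p they were miR-6540-5p (0.21), miR-484 (0.22) and miR-532-5p (0.25). The members were not each other's nearest neighbors. miR-125a-5p was 37th in the order of distance from miR-99b-5p and let-7e-5p was 97th, at distances of 0.39 and 0.64. From let-7e-5p, miR-125a-5p was 22nd and miR-99b-5p 42nd, and from miR-125a-5p, miR-99b-5p was 32nd and let-7e-5p 38th. These are descriptions over 4 libraries that share their scaling, and with so few libraries many miRNAs have similar profiles.

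miR-9-5p, the marker of forebrain neuroepithelium, is also a miRNA by which the paper followed the loss of Dicer. By in situ hybridization at later stages, the paper found miR-9 substantially reduced in the rostral telencephalon of mutants. Here miR-9-5p had 240963 and 259155 scaled CPM in mutants and 339853 and 524056 in controls. Its values did not overlap between genotypes, and the log2 change was −0.79 ± 0.27 (standard error; edgeR, unadjusted p = 0.0220, adjusted p = 0.344). With all 4 libraries this was a more negative value than that of any member. Without control library 2 it was −0.44, less negative than −0.84 for let-7e-5p and −0.54 for miR-125a-5p in the same setting. With no count minimum the adjusted p of miR-9-5p in edgeR was 0.0146. Markers of other cell types that the dissected tissue could hold were read in each library. The 3 red-cell miRNAs, of which miR-486a-5p was the most abundant and miR-451a is the best known, summed to 7595 and 8504 scaled CPM in mutants and 5737 and 6362 in controls. Both miR-486a-5p and miR-451a were higher in both mutant libraries, whereas miR-144-5p overlapped between genotypes. The 5 mesenchymal miRNAs, led by miR-199a-5p, summed to 11917 and 11348 in mutants and 4443 and 11072 in controls, so control library 1, in which let-7e-5p and miR-125a-5p were highest, was lowest for them. This list holds the 5p arm of miR-143, and its more highly read 3p arm, miR-143-3p, is not in the sum (log2 change 0.36 ± 0.38, standard error; edgeR, adjusted p = 0.789). The endothelial miR-126a-5p had 431 and 244 in mutants and 253 and 403 in controls. The 3 white blood cell miRNAs, led by miR-142a-5p, summed to 129 and 136 in mutants and 88.1 and 139 in controls. Of these, miR-142a-5p and miR-223-5p (below the count minimum) were higher in both mutant libraries, and miR-150-5p was lower in both. The neuronal miR-124-5p had 195 and 205 in mutants and 359 and 297 in controls. Apart from miR-451a, the marker lists hold rows named as 5p arms only. Their 3p arms are not in these values, which therefore do not measure how many cells of a type were present. Of the marker miRNAs, miR-9-5p included, 0 passed the adjusted threshold in edgeR in either direction with the count minimum applied, and none of them was at 0 in all libraries. Their part in the values of the cluster was not tested.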

How the data were processed

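Small RNA libraries (NEBNext kit, 75-base single-end reads) were made from the rostral telencephalic primordium of 2 Rx-Dicer and 2 control samples. The authors counted reads with miRDeep2 against mm10 and miRBase version 22, and deposited unnormalized counts, 1211 rows for pairs of mature miRNA and precursor. The version of miRDeep2 and its mismatch setting are not given in the sources used here.

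Of each of 65 mature miRNAs listed under more than 1 precursor, the most counted row was kept. A minimum of 10 counts in 2 or more libraries left 274 miRNAs, tested by edgeR 4.0.16 (quasi-likelihood, TMM scaling, genotype only, R 4.3.3), with Benjamini-Hochberg adjustment over all of them. DESeq2 1.42.0 was an alternative. Ratios within a library were compared by exact permutation (Python 3.11.15). A library total sets a floor, taken as 3 counts, of 2.49 to 5.12 scaled CPM. Scripts were tested on simulated data. Hairpins were placed with GENCODE M21 (GRCm38, the assembly of mm10). The named miRNAs are the members, the miRNAs of the related clusters, miRNAs with the same seeds, the nearest profiles and cell type markers; the rule for the members uses no measured value, but the cluster and the lists were picked with earlier results of these data known. Libraries of a genotype differed by more than counting error, so none was deposited more than once.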

Additional observations from a re-analysis of the deposited data

How the results depend on the processing

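No alternative brought a member past an adjusted p of 0.05. Across all alternatives the adjusted p ranged from 0.489 to 0.986 for miR-99b-5p, from 0.242 to 0.986 for let-7e-5p and from 0.305 to 0.986 for miR-125a-5p. An unadjusted p under 0.05 occurred for let-7e-5p with no count minimum (0.00838), with each precursor row tested (0.0432) and without control library 2 (0.0370), and for miR-125a-5p with no count minimum (0.0395). Direction held in each setting for let-7e-5p (−0.78 to −0.23) and miR-125a-5p (−0.59 to −0.034). miR-99b-5p was at 0.25 with total counts only, a scaling that moved the median of all miRNAs to 0.44, and between −0.32 and −0.056 otherwise. With each library left out, where a lone library is assumed to vary like the other group, the ranges were −0.20 to −0.10, −0.84 to −0.32 and −0.54 to −0.28 for miR-99b-5p, let-7e-5p and miR-125a-5p.

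The number of miRNAs called lower was 7, and it was 10 with at least 100 counts and 8 with precursor rows summed. It was 4 with DESeq2's size factors, 3 with upper-quartile scaling, 0 with total counts only (at an unadjusted p under 0.05, 10 were lower and 51 higher), 11 with DESeq2's Wald test, 14 with no count minimum, 14 of 349 when each precursor row was tested, and 0 to 6 with each library left out (0 without either control library). 0 were higher in any setting. With a replicate block, 0 were lower in edgeR (20 at an unadjusted p under 0.05), and the members were at −0.15, −0.61 and −0.43. Same-numbered libraries share only a number, and their deviations had a correlation of 0.09. The cause of these differences was not tested.

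Mutants minus controls, the cluster's part of all counts was 0.73 points, and 0.11 to 1.34 leaving out each library. Leaving miR-9-5p out of the totals gave −0.34. For the ratios within a library, the range with each library left out was −0.44 to 0.074 for let-7e-5p to miR-125a-5p and −0.20 to 0.32 for miR-125a-5p to miR-125b-5p, and the other 5 kept their direction but not their size: −0.74 to −0.18 for let-7e-5p and −0.43 to −0.12 for miR-125a-5p to miR-99b-5p (both least negative without control library 1), 0.71 to 0.95 for miR-99b-5p to miR-99a-5p, and 0.89 to 1.56 for let-7c-5p and 0.26 to 0.65 for let-7a-5p as the denominator of let-7e-5p. The nearest profiles were described by distance only and were not recomputed. Among 26 tested miRNAs of the other lists, 189 of 230 values in settings with all 4 libraries led to the same call in the same direction, 21 lost a call, 13 gained a call and 7 reversed. The reversed values were 0.36 and 0.033 for miR-100-5p, −0.14, −0.0017 and −0.021 for miR-351-5p, 0.27 for miR-144-5p and −0.13 for miR-126a-5p, and none of them had passed the threshold. With each library left out, ranges that crossed 0 were −0.38 to 0.32 for miR-100-5p, −0.14 to 0.22 for miR-351-5p, for miR-144-5p −0.69 to 0.48, for miR-126a-5p −0.43 to 0.42, and −0.0052 to 1.42 for miR-214-5p, −0.15 to 1.11 for miR-143-5p and −0.14 to 1.12 for miR-145a-5p.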
